A study of Mus musculus with 8 samples.

Results

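Regions of open chromatin that set cMoP apart from GMP-MoP, proNeu1 and proNeu2 were chosen in ATAC-seq counts of mouse bone marrow progenitor cells. ATAC-seq reads open DNA through insertions of the transposase Tn5. The series holds 8 libraries in 4 sorted groups with 2 libraries each, and its title derives GMP-MoP from proNeu1. cMoP was therefore set against the equal-weight mean of the 3 route groups, GMP-MoP, proNeu1 and proNeu2. A region was counted as apart when this contrast had an adjusted p under 0.05 (edgeR quasi-likelihood test, Benjamini-Hochberg adjustment over all tested regions), the levels of the 3 route groups lay within 1.5 fold of each other, and cMoP was at least 2 fold away from the nearest of them. Of 61196 regions counted in every library, 47506 had enough counts to be tested, and 574 (1.21%) met the rule, 224 with cMoP higher and 350 with cMoP lower. All groups are bone marrow progenitors from mice, with 5000 sorted cells in a tube. Neither the strain, genotype and age of the mice nor the gates of the sorts are given in the sources used here. The 2 libraries of a group are labelled as biological replicates without a word on separate animals. The p-values set group differences against how far the libraries within groups vary, a spread that may be technical in part.

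The labels do not spell out the group names. In the usual wording of the field, cMoP is a progenitor committed to monocytes, and proNeu1 and proNeu2 are successive early stages of the neutrophil line. Monocyte and neutrophil precursors share many open enhancers and promoters. Commitment to monocytes is known to rest on factors such as PU.1, IRF8 and KLF4, while granule genes are driven by C/EBP factors and GFI1. An enhancer opens when such factors displace nucleosomes, so accessibility marks sites that a cell could use, and it does not measure the expression of the gene next to it.

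Totals over the counted regions lay between 1388525 and 1907810 reads a library, with the largest totals in the 2 cMoP libraries. The median region held 16 and 18 counts in cMoP, against 11 to 15 counts in the 6 route libraries. Levels are given in CPM, read counts per library after TMM scaling of the totals, in the order of replicates 1 and 2. Differences are cMoP minus the route mean on a log2 scale, with a standard error (SE). Coordinates are on mm10. The nearest protein-coding gene within 50 kb names a region, which says where it lies and not which gene it controls. Where a group had 1 to 3 counts, the ratio of the pooled counts of cMoP and the 6 route libraries is given instead, after scaling, with its 95% exact counting interval, which covers counting error only.

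Few of the apart regions touched a transcription start site. Among the 17 that did, the promoter windows of 7 genes described below are shown, so that these regions can be read as sequence, 4 with cMoP lower and then 3 with cMoP higher. They run from 250 bases before to 50 bases after the start site on the strand of the gene, 5′ to 3′, and were taken from RefSeq on GRCm38.p6, the mm10 assembly. Capitals mark matches, on either strand, to GAGGAA (the core of PU.1 sites), TTGCNNAA (C/EBP), TGANTCA (AP-1), TGTGGT (RUNX) or the IRF motif of 2 GAAA copies with 2 bases between them, with overlapping matches merged. Chst13 encodes a chondroitin sulfotransferase (chr6:90325136-90325435, minus strand), Abca13 a large ABC transporter (chr11:9191692-9191991, plus strand), Cd81 a tetraspanin (chr7:143052500-143052799, plus strand) and Mcpt8 a basophil protease (chr14:56085148-56085447, minus strand). Osbpl3 encodes a lipid transfer protein of the oxysterol-binding family (chr6:50456121-50456420, minus strand), Adora3 the adenosine A3 receptor (chr3:105904171-105904470, plus strand) and F2rl2 a protease-activated receptor (chr13:95696670-95696969, plus strand).
Chst13: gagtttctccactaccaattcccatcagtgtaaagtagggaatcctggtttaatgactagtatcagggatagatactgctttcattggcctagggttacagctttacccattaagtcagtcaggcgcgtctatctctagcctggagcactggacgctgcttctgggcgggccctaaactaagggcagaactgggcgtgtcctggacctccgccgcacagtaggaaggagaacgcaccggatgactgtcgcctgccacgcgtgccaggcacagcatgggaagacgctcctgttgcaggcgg
Abca13: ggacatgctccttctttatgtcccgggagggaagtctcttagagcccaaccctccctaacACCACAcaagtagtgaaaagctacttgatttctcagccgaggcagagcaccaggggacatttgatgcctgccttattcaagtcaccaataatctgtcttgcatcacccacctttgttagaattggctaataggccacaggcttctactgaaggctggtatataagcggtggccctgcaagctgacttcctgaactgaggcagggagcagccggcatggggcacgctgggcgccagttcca
Cd81: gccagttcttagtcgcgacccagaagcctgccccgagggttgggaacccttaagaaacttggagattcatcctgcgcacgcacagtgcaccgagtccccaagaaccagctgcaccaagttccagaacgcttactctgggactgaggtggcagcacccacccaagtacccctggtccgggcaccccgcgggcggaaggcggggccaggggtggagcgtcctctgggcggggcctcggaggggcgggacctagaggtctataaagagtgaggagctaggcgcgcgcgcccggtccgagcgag
Mcpt8: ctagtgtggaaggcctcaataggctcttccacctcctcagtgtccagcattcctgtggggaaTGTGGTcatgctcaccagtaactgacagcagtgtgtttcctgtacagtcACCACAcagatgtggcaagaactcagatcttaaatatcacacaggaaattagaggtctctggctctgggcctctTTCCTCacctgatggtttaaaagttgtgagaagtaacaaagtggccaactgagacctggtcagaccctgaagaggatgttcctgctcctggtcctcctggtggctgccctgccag
Osbpl3: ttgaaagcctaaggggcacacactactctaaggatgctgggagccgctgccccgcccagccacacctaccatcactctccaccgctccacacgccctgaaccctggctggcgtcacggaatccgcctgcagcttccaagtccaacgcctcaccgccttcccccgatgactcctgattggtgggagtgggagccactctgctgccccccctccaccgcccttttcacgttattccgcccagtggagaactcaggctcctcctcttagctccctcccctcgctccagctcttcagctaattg
Adora3: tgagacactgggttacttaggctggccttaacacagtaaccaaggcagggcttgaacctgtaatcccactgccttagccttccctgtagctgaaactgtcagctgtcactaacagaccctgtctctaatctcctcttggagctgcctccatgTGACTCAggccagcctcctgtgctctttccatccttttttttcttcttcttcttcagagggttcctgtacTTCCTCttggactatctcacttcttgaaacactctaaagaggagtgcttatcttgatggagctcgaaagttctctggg
F2rl2: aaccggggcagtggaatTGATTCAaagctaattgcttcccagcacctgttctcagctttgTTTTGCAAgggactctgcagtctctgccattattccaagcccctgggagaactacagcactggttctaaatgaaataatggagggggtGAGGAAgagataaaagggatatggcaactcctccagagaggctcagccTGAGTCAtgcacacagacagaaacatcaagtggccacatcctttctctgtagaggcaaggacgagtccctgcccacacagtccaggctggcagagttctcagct

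The 17 regions covered the windows of 18 genes, since 1 region held the start sites of both Cfap99 and Zfyve28. GAGGAA stood in 5 of the 18 windows, and in 28.3% of all 32851 RefSeq windows of the same length and 27.4% of the 13103 windows inside tested regions. TTGCNNAA stood in 2 windows of apart regions, with 10.8% over all windows and 8.39% over those in tested regions. TGANTCA stood in 3, with 7.81% and 4.53%, and TGTGGT in 3, with 16.8% and 12.6%. The IRF motif stood in none, with 3.44% and 2.95%, which says only that these letters are missing from the 18 windows. The windows of the apart regions were too few for a difference from these shares to be read. The F2rl2 window held matches to 3 of the motifs, including 2 copies of TGANTCA, and the Chst13, Cd81 and Osbpl3 windows held none. The median GC content was 59.0% in the 18 windows, 52.7% in all windows and 61.7% in the windows of tested regions.

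The contrast as a whole was wide, and most of it did not come from all 3 route groups alike. cMoP was higher than the route mean at 11657 regions (24.5% of those tested) and lower at 9475 (19.9%). The route groups differed among themselves at 16756 regions (35.3%, adjusted p of an F test over the 3 group means). Of the 11657 higher regions, 6787 (58.2%) had GMP-MoP within 1.5 fold of cMoP, and at 3590 of them (30.8% of the higher regions) both proNeu groups were in addition at least 2 fold away. All 3 route groups were at least 2 fold below cMoP at 1639 of the 11657 regions (14.1%). Of the 9475 lower regions, 6348 (67.0%) had GMP-MoP within 1.5 fold of cMoP, and at 1129 (11.9%) all 3 route groups lay at least 2 fold above it. The median log2 difference from cMoP, in the direction of the call, was 0.50 for GMP-MoP, 1.36 for proNeu1 and 1.63 for proNeu2 at the higher regions, and 0.35, 0.92 and 1.04 at the lower ones, in the same order of groups. Taken one pair at a time, cMoP was higher than GMP-MoP at 1649 regions (3.47%) and lower at 941 (1.98%), 5.45% in all. It was higher than proNeu1 at 10389 (21.9%) and lower at 9773 (20.6%), 42.4% in all. Against proNeu2 it was higher at 13018 (27.4%) and lower at 11991 (25.2%), 52.6% in all. These comparisons share the cMoP libraries. DESeq2's Wald test of the contrast called 6899 regions higher and 3863 lower. Without cMoP replicate 2 edgeR called 6010 lower, and without GMP-MoP replicate 2 it found 8258 regions that differed among the route groups.

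**Figure D1:**
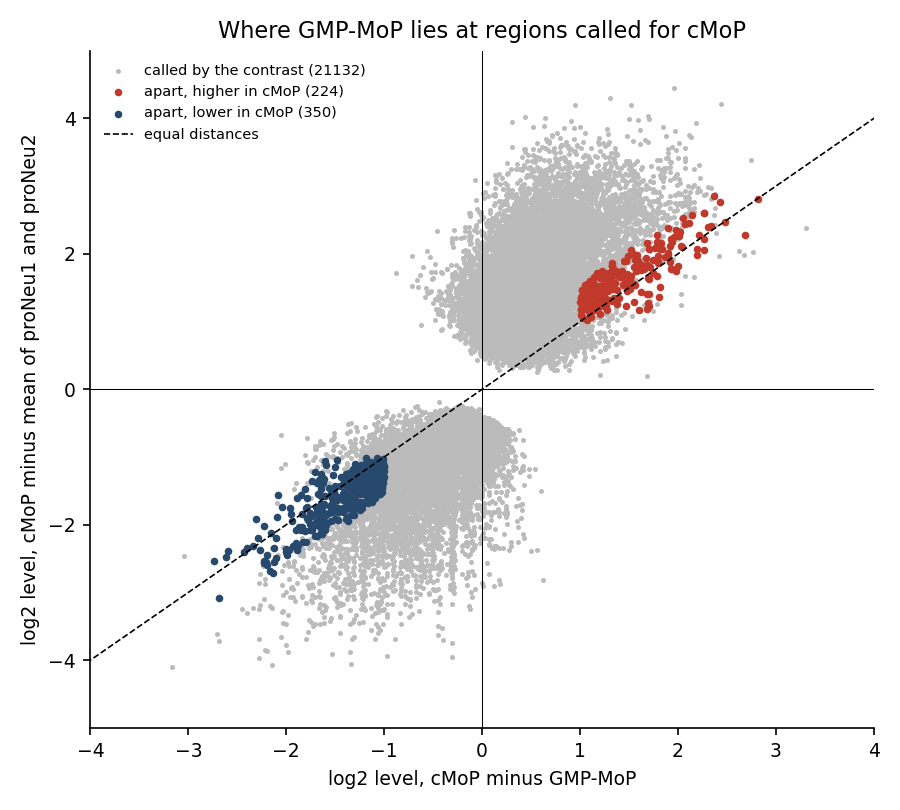
Each point is a region called by the contrast of cMoP with the route mean; the x axis is the log2 level of cMoP minus that of GMP-MoP and the y axis that of cMoP minus the mean of proNeu1 and proNeu2. The 11657 higher and 9475 lower regions (grey) lie mostly on the proNeu side of the dashed line of equal distances, with GMP-MoP close to cMoP, while the 224 (red) and 350 (blue) apart regions lie along that line, as the rule requires.

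The route groups lay within 1.5 fold of each other at 1809 of the higher regions (15.5%) and 3106 of the lower ones (32.8%). The apart regions are those at which cMoP was also at least 2 fold from the nearest route group. They made up 0.472% of tested regions for the higher direction and 0.737% for the lower one. The same rule with another group in the place of cMoP, against the mean of the other 3, found 32 regions (0.0674%) for GMP-MoP, 34 (0.0716%) for proNeu1 and 245 (0.516%) for proNeu2. At the edges of the rule, the closest region inside had cMoP 2.002 fold from the nearest route group and the closest outside 1.9996 fold, and the route groups spanned 1.4995 fold at the last region inside and 1.501 fold at the first outside. A further 2194 regions had cMoP past 2 fold but route groups too far apart, 659 of them within 2 fold of each other. The largest adjusted p among members was 0.0211. The numbers of members rest in part on single libraries: leaving out replicate 1 of cMoP gave 396 higher ones, and leaving out replicate 1 or 2 of GMP-MoP gave 459 or 722. The lower ones numbered 568 with replicate 2 of cMoP left out.

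Most members were weak regions. At the 224 higher ones the median level was 10.4 CPM in cMoP, against 3.15 CPM in GMP-MoP, 2.59 CPM in proNeu1 and 2.52 CPM in proNeu2, with medians of 39, 10, 7.5 and 8 counts over the 2 libraries of each group. The 350 lower ones had a median of 2.66 CPM in cMoP, against 8.81 CPM in GMP-MoP, 10.4 CPM in proNeu1 and 10.2 CPM in proNeu2, with medians of 10, 28, 30 and 32 counts. The median log2 difference was 1.83 at the higher and -1.79 at the lower members, and it stayed so with the 6 regions that had no count in a group set at their bounds. GMP-MoP was the route group nearest to cMoP at 65.2% of the higher and 63.4% of the lower members, and at 69.5% of all tested regions. Set against each route group alone, 152 of the 224 higher and 229 of the 350 lower members passed against GMP-MoP, 220 and 334 against proNeu1, and 224 and 346 against proNeu2. Both cMoP libraries lay outside all 6 route libraries at 223 higher and 343 lower members, and at 30.3% of tested regions, but these values chose the members and lend no support of their own. The same holds for each single member below at which the cMoP libraries are said to lie above or below the route libraries. The route groups differed by the F test, at an adjusted p under 0.05, at 0 higher and 3 lower members. These 3 were Chst13, Abca13 and Fry, whose counts were among the largest. At an unadjusted p under 0.05 the numbers were 0 and 5, with 44.2% of all tested regions. The fold limits chose the members on these same counts. The F test numbers and those against each route group alone therefore lend no support either.

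**Figure D2:**
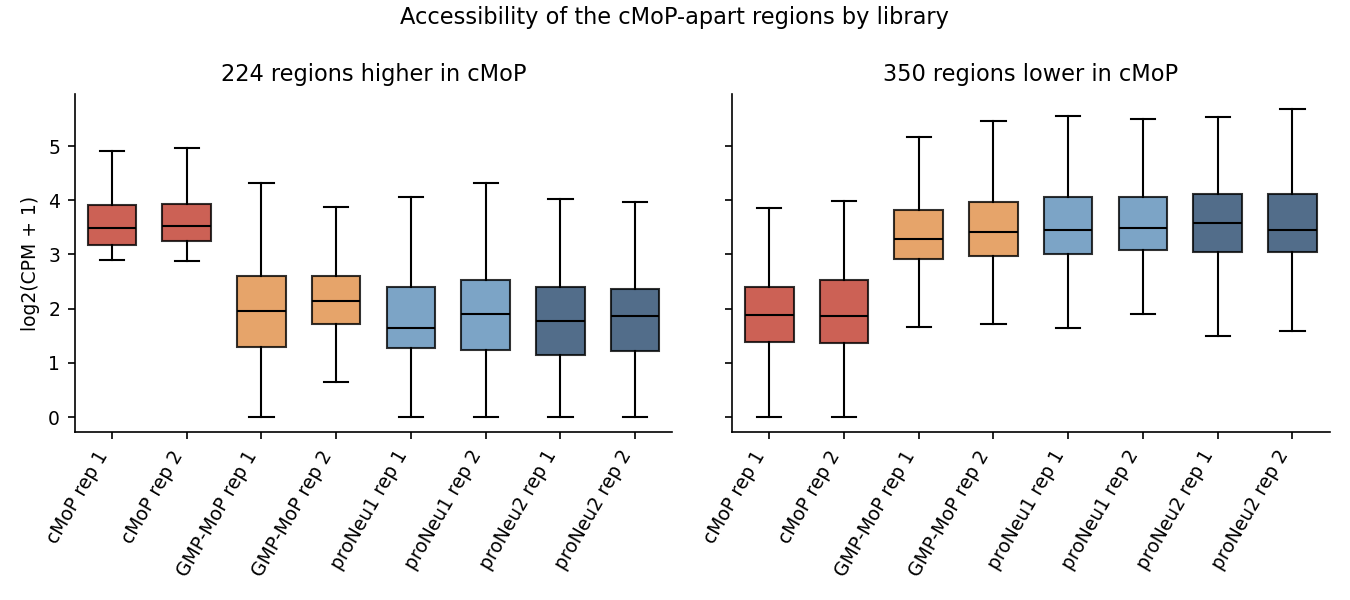
Accessibility of the 224 higher (left) and 350 lower (right) apart regions in each of the 8 libraries, as log2(CPM + 1). Boxes span the quartiles with the median as a line, and whiskers reach the farthest region within 1.5 times the box height; the 2 libraries of each group have like medians, 10.2 and 10.6 CPM in cMoP at the higher members and 2.69 and 2.64 CPM at the lower ones.

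The cMoP libraries also differed from the route libraries by region strength, which bears on the weak members. Tested regions were split by mean level into 4 groups of equal size. The median log2 difference was 0.69 in the weakest group, with a median of 5.89 CPM, then 0.13, 0.02 and, in the strongest, with 44.7 CPM, -0.23. From weak to strong, the groups held 171, 43, 10 and 0 of the higher members, and 137, 113, 87 and 13 of the lower ones. With loess offsets, which take out this drift over strength, 116 higher and 331 lower regions met the rule, 62 and 222 of them shared with the lists described here. The lower members include regions that ran against the drift, and the higher ones are mostly weak regions that ran with it. What produced the drift was not tested.

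The fold limits of the rule were also applied in some libraries and read in others. Regions were chosen by the fold parts of the rule on the replicate 1 libraries alone and then read in the replicate 2 libraries. The 408 higher regions so chosen had a median log2 difference of 1.53 in replicate 1 and 1.396 in replicate 2, where cMoP lay above all 3 route groups at 90.0% of them, against 33.0% of all tested regions. The 444 lower ones had -1.48 and -0.88, with cMoP below all 3 at 75.5%, against 29.4%. Chosen on replicate 2 and read in replicate 1, the 236 higher regions had 1.46 and 1.35 with 86.4% beyond all 3 (32.3% of all), and the 464 lower ones -1.53 and -1.02 with 75.6% (30.3% of all). The route groups lay within 1.5 fold of each other, in the libraries not used, at 15.2% and 34.5% of the regions chosen on replicate 1 as higher and lower, against 34.0% of all tested regions. On replicate 2 the shares were 22.0% and 28.4%, against 37.5%. Agreement of the route groups was thus less frequent at the higher regions so chosen than at all tested regions. The libraries read were not independent of the choice, since the filter on low counts used all 8 libraries. A region with counts in cMoP alone passed that filter only if both cMoP libraries reached the minimum. Tested regions of all strengths give these background shares, while weak regions leaned towards higher levels in cMoP. The part of the filter, region strength and depth in either set of shares was not tested.

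Higher in cMoP were 3 regions at genes of dendritic cells and antigen presentation, a list of 30 genes with 109 tested regions (2.75%, against 0.472% of all tested regions); with total counts in place of TMM 1 region of the list was apart. The list had 45 regions called higher and 10 lower by the contrast, 41.3% and 9.17% against 24.5% and 19.9% of all tested regions, and a median log2 difference of 0.44 against 0.01. The region in Zbtb46 (chr2:181436188-181436844), the gene of a factor that marks classical dendritic cells, had 22.0 and 16.4 CPM in cMoP, against 2.18 and 2.83 in GMP-MoP, 0.708 and 2.03 in proNeu1 and 0.608 and 3.98 in proNeu2 (log2 difference 3.22, SE 0.349, adjusted p = 4.03e-16). Both cMoP libraries stood well above the rest, and the 6 route libraries held between 1 and 6 counts each. It was 1 of 6 tested regions at the gene, and the 5 others were not called; the strongest of them had 34.9 and 27.4 CPM in cMoP, against 37.8 and 38.5 in GMP-MoP, 31.9 and 29.2 in proNeu1 and 29.8 and 29.2 in proNeu2 (log2 difference -0.06, SE 0.175, adjusted p = 0.802). Inside Cd83 (chr13:43788809-43789549), which encodes a surface protein of activated dendritic cells, the levels were 14.0 and 17.9 CPM in cMoP, against 7.26 and 7.37 in GMP-MoP, 5.67 and 5.43 in proNeu1 and 6.08 and 4.65 in proNeu2 (log2 difference 1.39, SE 0.292, adjusted p = 1.92e-05). Within Ciita (chr16:10521138-10521776), the gene of the coactivator of MHC class II, they were 11.3 and 9.50 CPM in cMoP, against 2.18 and 5.10 in GMP-MoP, 4.25 and 4.07 in proNeu1 and 3.65 and 4.65 in proNeu2 (log2 difference 1.35, SE 0.359, adjusted p = 8.85e-04). At both genes the cMoP libraries lay above all route libraries by a smaller margin than at Zbtb46. DESeq2's Wald test did not call Ciita, and with loess offsets Zbtb46 alone of the 3 still met the apart rule. Of the 16 alternative fits, 6 kept Cd83 apart, 10 kept Ciita and 11 kept Zbtb46. Against GMP-MoP alone Ciita did not pass (adjusted p = 0.0504).

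Single members of 3 other lists were higher in cMoP. Outside Pparg (chr6:115504695-115505493, 14291 bp from the gene), which encodes a nuclear receptor of lipid handling needed in alveolar macrophages, a region had 13.4 and 11.1 CPM in cMoP, against 1.45 and 3.40 in GMP-MoP, 0.708 and 2.71 in proNeu1 and 1.22 and 3.32 in proNeu2 (log2 difference 2.48, SE 0.401, adjusted p = 3.28e-08). With loess offsets this region was still called but no longer apart. It was 1 of 495 tested regions of the list of myeloid transcription factors, of which 117 were called higher and 109 lower (23.6% and 22.0%, against 24.5% and 19.9% of all tested regions). In Usp18 (chr6:121251091-121252773), whose product removes ISG15 and dampens interferon signalling, the levels were 19.9 and 20.6 CPM in cMoP, against 7.26 and 6.80 in GMP-MoP, 9.21 and 6.78 in proNeu1 and 7.30 and 3.32 in proNeu2 (log2 difference 1.58, SE 0.269, adjusted p = 1.29e-07). The 58 tested regions of the interferon list had 5 called higher (8.62%, against 24.5% of all) and 11 lower (19.0%, against 19.9%). Pecam1, the gene of the adhesion molecule CD31, held apart regions of both directions: inside the gene (chr11:106674598-106675969) the levels were 29.0 and 24.3 CPM in cMoP, against 7.26 and 13.6 in GMP-MoP, 7.08 and 10.9 in proNeu1 and 11.6 and 6.64 in proNeu2 (log2 difference 1.46, SE 0.233, adjusted p = 1.84e-08). A weak region 1215 bp outside the gene (chr11:106716496-106717127) had 2.69 and 2.11 CPM in cMoP, against 7.26 and 5.10 in GMP-MoP, 3.54 and 10.2 in proNeu1 and 10.3 and 6.64 in proNeu2 (log2 difference -1.54, SE 0.477, adjusted p = 0.00467). The second call did not hold in DESeq2's Wald test or without cMoP replicate 2.

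The next higher members were picked after their values were seen, as among the most accessible or, at Adora3 and F2rl2, for the start site in the region. At the start site of Osbpl3 (chr6:50455316-50456789), whose window is printed among the sequences, the levels were 48.9 and 34.3 CPM in cMoP, against 18.9 and 15.9 in GMP-MoP, 18.4 and 19.0 in proNeu1 and 15.2 and 14.6 in proNeu2 (log2 difference 1.30, SE 0.184, adjusted p = 3.02e-10). Plbd1, which encodes a phospholipase B-like protein, held a region inside the gene (chr6:136654290-136655219) with 25.8 and 29.0 CPM in cMoP, against 7.99 and 11.3 in GMP-MoP, 7.08 and 7.46 in proNeu1 and 7.30 and 7.30 in proNeu2 (log2 difference 1.76, SE 0.238, adjusted p = 4.20e-11). Near Hmox1, the gene of heme oxygenase (chr8:75085795-75086651, 6967 bp away), a region had 23.1 and 31.1 CPM in cMoP, against 10.2 and 13.6 in GMP-MoP, 7.79 and 10.2 in proNeu1 and 6.69 and 9.29 in proNeu2 (log2 difference 1.50, SE 0.231, adjusted p = 5.56e-09). At each of the 3 the lower cMoP library was above the highest route library, and with loess offsets each still met the apart rule. Regions at Slc30a1, a zinc exporter, Eif4e3, a cap-binding protein, Hunk, a protein kinase, and Shcbp1l had mean levels of 25.6, 24.8, 30.4 and 33.3 CPM in cMoP and log2 differences of 1.63, 1.49, 1.42 and 1.25. Adora3, whose start site was inside its region (chr3:105904187-105904836), had 12.4 and 14.8 CPM in cMoP, against 2.18 and 5.10 in GMP-MoP, 1.42 and 4.75 in proNeu1 and 3.65 and 1.99 in proNeu2 (log2 difference 2.04, SE 0.348, adjusted p = 1.42e-07). The start site of F2rl2 lay in a region (chr13:95696565-95698432) with 13.4 and 20.1 CPM in cMoP, against 7.99 and 6.80 in GMP-MoP, 9.21 and 6.10 in proNeu1 and 6.69 and 8.63 in proNeu2 (log2 difference 1.15, SE 0.276, adjusted p = 2.14e-04).

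The largest differences among higher members of at least 10 CPM (a level that includes the prior count of 2) stood at 12 genes: Pkib, Phlpp1, Klk1b21, Pgrmc2, Zbtb46, Nav1, Lpgat1, Smc1a, Tnpo1, Klf14, Lpar5 and Tcof1. Near Pkib, which encodes an inhibitor of protein kinase A (chr10:57758692-57759504, 17580 bp away), a region had 10.8 and 9.50 CPM in cMoP, against 1.45 and 0.567 in GMP-MoP, 0.708 and 0 in proNeu1 and 0 and 0.664 in proNeu2 (cMoP over route 18.6, 95% interval 7.30 to 60.5, adjusted p = 1.34e-10). A second apart region nearer to the gene (chr10:57745402-57746082) had 16.7 and 19.0 CPM in cMoP, against 2.18 and 8.50 in GMP-MoP, 4.25 and 5.43 in proNeu1 and 5.47 and 5.31 in proNeu2 (log2 difference 1.74, SE 0.292, adjusted p = 1.06e-07). Of the 10 tested regions at Pkib 8 were called higher and 0 lower. Near Smc1a, the gene of a cohesin subunit (chrX:152067699-152068370), the levels were 10.8 and 17.4 CPM in cMoP, against 1.45 and 2.83 in GMP-MoP, 0.708 and 2.03 in proNeu1 and 1.22 and 1.33 in proNeu2 (log2 difference 3.10, SE 0.409, adjusted p = 1.31e-11). Nav1 (neuron navigator, chr1:135534641-135535366) had 10.2 and 12.7 CPM in cMoP, against 1.45 and 1.13 in GMP-MoP, 1.42 and 1.36 in proNeu1 and 1.22 and 0.664 in proNeu2 (cMoP over route 9.56, 95% interval 4.85 to 20.5, adjusted p = 8.49e-10). In all of these regions the cMoP libraries never fell below the route libraries, as at 223 of the 224 higher members, which were chosen on these values. At the 12 regions of largest difference the route side rested on 19 counts at most over 6 libraries. With loess offsets the contrast no longer called the regions at Phlpp1, Klk1b21, Pgrmc2, Tnpo1, Klf14, Lpar5 and Tcof1, with adjusted p-values of 0.0625 to 0.108, and of the 12 Pkib, Zbtb46 and Smc1a still met the apart rule. Klk1b21 belongs to a family of near-identical kallikrein genes, so its reads could be split between copies. Atxn1 had the clearest absence: its region (chr13:45724756-45725258) had 6.45 and 8.45 CPM in cMoP and 0 counts in all 6 route libraries, so that cMoP was at least 22.8-fold higher against a floor of 3 counts over the 6.

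Lower in cMoP were 3 of the 34 tested regions (8.82%, against 0.737% of all tested regions) at primary granule genes, the proteases and peroxidases that early neutrophil precursors pack first. The list of 12 genes had 6 regions called higher and 12 lower, 17.6% and 35.3% against 24.5% and 19.9% of all tested regions, and a median log2 difference of -0.34 against 0.01. The list of housekeeping genes had a like lean, with 12 of 30 regions called lower (40.0%) and a median of -0.32, but no apart region. The primary granule regions summed to 683 to 704 CPM in the cMoP libraries. In the route libraries they summed to 765 to 863 CPM in GMP-MoP, 783 to 843 CPM in proNeu1 and 842 to 870 CPM in proNeu2. Cst7, which encodes cystatin F, an inhibitor of cathepsin C, held a region (chr2:150572139-150573085) with 4.84 and 7.92 CPM in cMoP, against 18.9 and 22.1 in GMP-MoP, 26.9 and 25.8 in proNeu1 and 18.8 and 21.9 in proNeu2 (log2 difference -1.79, SE 0.283, adjusted p = 1.45e-08). Prss57, the gene of a neutrophil serine protease, held one (chr10:79788366-79789341) with 9.14 and 7.92 CPM in cMoP, against 24.0 and 16.4 in GMP-MoP, 19.1 and 24.4 in proNeu1 and 25.5 and 24.6 in proNeu2 (log2 difference -1.37, SE 0.264, adjusted p = 3.39e-06). At both, the cMoP libraries were below every route library and the route groups were close to each other. A region 33046 bp from Ctsc (chr7:88244231-88244978), which encodes cathepsin C, the activator of granule serine proteases, had 0.538 and 1.58 CPM in cMoP, against 7.99 and 10.8 in GMP-MoP, 6.37 and 8.82 in proNeu1 and 6.69 and 10.6 in proNeu2 (log2 difference -2.92, SE 0.548, adjusted p = 1.97e-06). Ctsc as a locus did not follow that region, since 5 of its 8 tested regions were called higher in cMoP and this 1 lower.

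Peroxidase genes next to each other on chromosome 11 were lower as well. The region at the end of Lpo, which encodes lactoperoxidase (chr11:87806111-87807254), had 41.4 and 36.9 CPM in cMoP, against 81.3 and 88.4 in GMP-MoP, 75.8 and 117 in proNeu1 and 90.0 and 80.3 in proNeu2 (log2 difference -1.18, SE 0.144, adjusted p = 2.82e-13); it was among the most accessible members and was picked after its value was seen. It lies at higher coordinates than Mpo, the myeloperoxidase gene and a standard marker of primary granules. The 2 tested regions of Mpo were both called lower but did not meet the apart rule: the stronger (chr11:87793055-87794324) had 46.2 and 45.9 CPM in cMoP, against 77.0 and 62.9 in GMP-MoP, 64.4 and 82.7 in proNeu1 and 103 and 98.2 in proNeu2 (log2 difference -0.80, SE 0.139, adjusted p = 2.87e-07). At Lpo and at this region of Mpo both cMoP libraries lay below every route library. The value of Lpo set against GMP-MoP alone was -1.12 (log2, adjusted p = 5.86e-07); at Mpo it was -0.59 (adjusted p = 0.0202). With loess offsets Lpo kept its call but was no longer 2 fold from the nearest route group, with a contrast of -0.92 on the log2 scale. Of the later granule and neutrophil maturation genes, 94 tested regions had 11 called higher and 40 lower (11.7% and 42.6%, against 24.5% and 19.9% of all, and 40.0% lower among housekeeping regions), with a median of -0.48, and 1 region (1.06%, against 0.737% of all) met the apart rule. With loess offsets it was called but no longer apart. This region, 6377 bp from S100a9, which encodes a subunit of calprotectin (chr3:90702098-90703035), had 0.538 and 1.06 CPM in cMoP, against 2.18 and 6.24 in GMP-MoP, 6.37 and 7.46 in proNeu1 and 5.47 and 3.98 in proNeu2 (route over cMoP 6.68, 95% interval 2.16 to 33.5, adjusted p = 8.58e-04). Set against GMP-MoP alone, the region did not pass (adjusted p = 0.0740). The list's median against GMP-MoP alone was -0.12, against -0.54 for proNeu1 and -0.77 for proNeu2.

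Chst13 had the lower member with the highest mean level over the route groups. Inside the gene (chr6:90318542-90321158) the levels were 30.6 and 30.1 CPM in cMoP, against 69.0 and 73.1 in GMP-MoP, 109.8 and 90.9 in proNeu1 and 97.3 and 96.2 in proNeu2 (log2 difference -1.54, SE 0.151, adjusted p = 4.35e-19). The start site region (chr6:90324771-90325617), whose sequence is printed above, had 8.60 and 8.97 CPM in cMoP, against 24.0 and 20.4 in GMP-MoP, 23.4 and 25.8 in proNeu1 and 21.9 and 20.6 in proNeu2 (log2 difference -1.35, SE 0.259, adjusted p = 3.03e-06). These are the only 2 tested regions at the gene, and at both of them each cMoP library lay below each route library. The GMP-MoP libraries were the lowest of the route libraries at the stronger region, where the route groups themselves differed (adjusted p = 0.0120 in the F test). GMP-MoP was also the lowest route group at the start site of Abca13 (chr11:9189880-9192338), with 14.5 and 18.5 CPM in cMoP, against 34.9 and 47.6 in GMP-MoP, 50.3 and 52.2 in proNeu1 and 56.5 and 69.0 in proNeu2 (log2 difference -1.63, SE 0.191, adjusted p = 3.98e-14; F test of the route groups, adjusted p = 0.0286). Fry, a gene of cell shape control in flies (chr5:150231957-150234162), had 24.7 and 25.3 CPM in cMoP, against 56.6 and 47.6 in GMP-MoP, 49.6 and 59.0 in proNeu1 and 84.5 and 71.0 in proNeu2 (log2 difference -1.27, SE 0.168, adjusted p = 1.65e-11; route groups, adjusted p = 0.00425). Mean levels at other well covered members were 14.1 CPM in cMoP, against 39.5 in GMP-MoP, 44.7 in proNeu1 and 46.8 CPM in proNeu2 for Mrps35, a mitochondrial ribosomal protein gene. For Ostf1, an osteoclast-stimulating factor gene, they were 18.7 CPM in cMoP, against 40.8 in GMP-MoP, 48.1 in proNeu1 and 48.0 CPM in proNeu2. For Rin3, the gene of a Rab5 regulator, they were 16.5 CPM in cMoP, against 35.0 in GMP-MoP, 40.2 in proNeu1 and 46.1 CPM in proNeu2. The region inside Chst13 and those at Abca13, Mrps35, Ostf1 and Rin3 still met the apart rule with loess offsets. Fry kept its call but did not meet it (log2 difference -1.04), and it was apart in 6 of the 16 alternative fits.

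**Figure D3:**
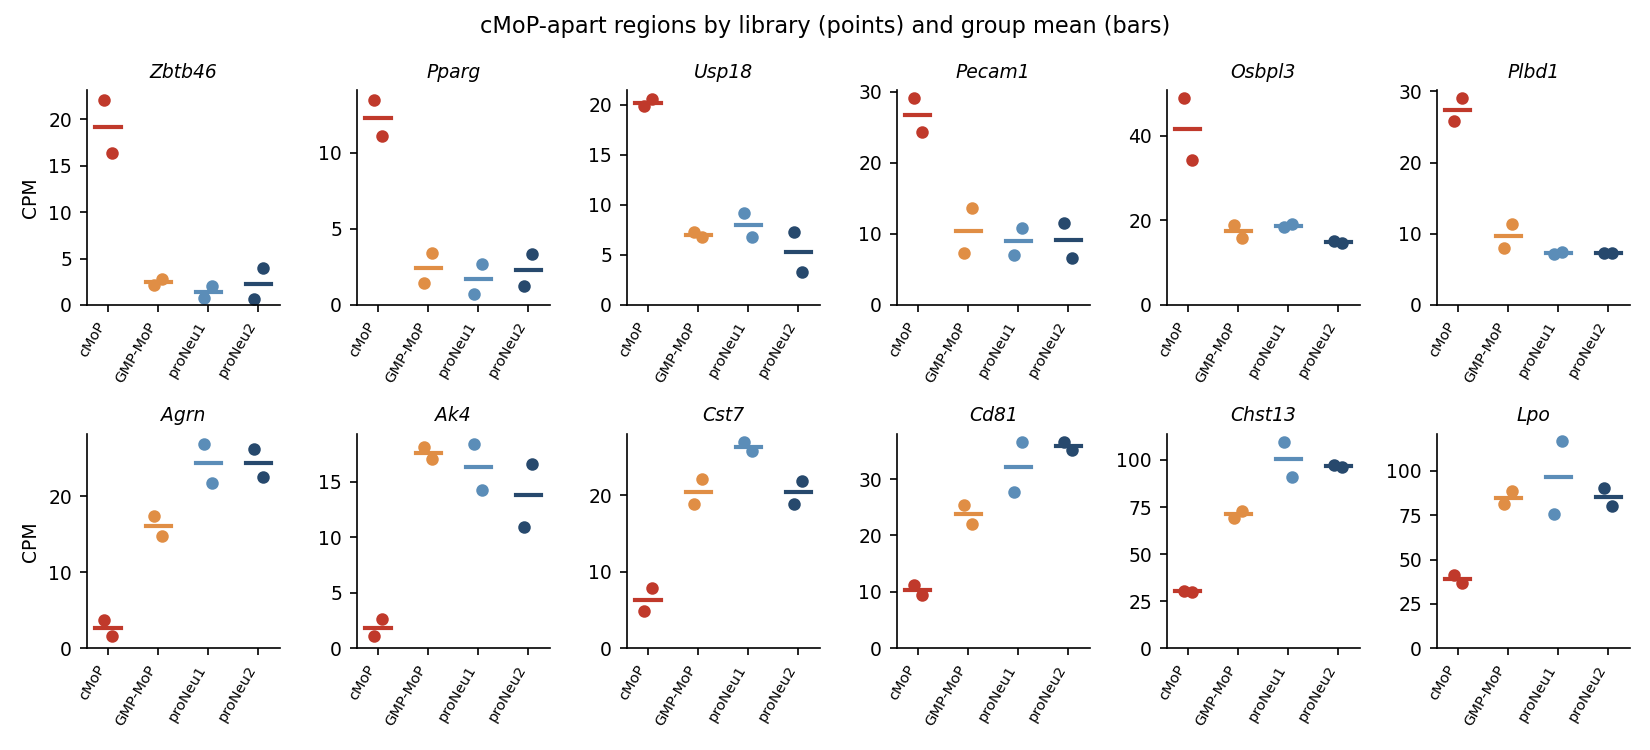
CPM in each library (points) with the group mean (bars) at 6 regions higher (top) and 6 lower (bottom) in cMoP, named by the linked gene. At all 12 the cMoP libraries lie outside the route libraries, as at 566 of the 574 members, which were chosen on these values, and 30.3% of tested regions. Zbtb46 has the widest gap of the upper row as a ratio. Chst13 has the highest mean over the route groups in the lower row (89.4 CPM, against 88.8 at Lpo), and Lpo the highest level in cMoP.

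Transcription factor genes held 5 lower members and the 1 higher at Pparg, among 495 tested regions, shares of 1.01% and 0.202% against 0.737% and 0.472% of all tested regions. Near Klf7, a Krüppel-like factor gene (chr1:64126573-64127555, 4228 bp away), the levels were 5.91 and 4.22 CPM in cMoP, against 11.6 and 19.8 in GMP-MoP, 24.1 and 21.7 in proNeu1 and 23.1 and 22.6 in proNeu2 (log2 difference -1.99, SE 0.307, adjusted p = 6.04e-09). Bach1, the gene of a heme-regulated repressor, held a region (chr16:87725804-87727855) with 9.68 and 6.33 CPM in cMoP, against 21.1 and 20.4 in GMP-MoP, 17.0 and 19.0 in proNeu1 and 23.1 and 18.6 in proNeu2 (log2 difference -1.30, SE 0.274, adjusted p = 2.12e-05). A region 41913 bp from Bhlhe40, a basic helix-loop-helix repressor gene (chr6:108617713-108618716), had 3.76 and 2.64 CPM in cMoP, against 5.81 and 15.3 in GMP-MoP, 12.7 and 13.6 in proNeu1 and 16.4 and 14.6 in proNeu2 (log2 difference -2.01, SE 0.382, adjusted p = 2.47e-06). The remaining members of this list were Bach2 (log2 difference -1.41), a repressor that restrains myeloid programmes in lymphoid precursors, and Myb (-1.94), a factor of early progenitors. The median of the list was -0.02, against 0.01 over all tested regions.

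The stem and early progenitor list had 4 lower and 0 higher members of 244 tested regions (1.64% lower, against 0.737% of all). The contrast called 56 of its regions higher and 45 lower, 23.0% and 18.4%, near the 24.5% and 19.9% of all tested regions. The 4 members lay at Kit, Prom1, Bcl11a and Myb. Kit encodes the receptor of stem cell factor, and its apart region (chr5:75615563-75616121) had 0.538 and 1.58 CPM in cMoP, against 2.90 and 7.37 in GMP-MoP, 3.54 and 8.14 in proNeu1 and 9.12 and 6.64 in proNeu2 (log2 difference -2.48, SE 0.613, adjusted p = 3.18e-04). It was 1 of 4 tested regions at Kit, of which 2 were called higher; the strongest, at an end of the gene, had 49.99 and 37.5 CPM in cMoP, against 47.9 and 34.6 in GMP-MoP, 58.8 and 61.0 in proNeu1 and 54.1 and 54.4 in proNeu2 (log2 difference -0.22, SE 0.151, adjusted p = 0.233). Prom1, which encodes the surface protein CD133, held a region (chr5:44073282-44074160) with 0.538 and 2.64 CPM in cMoP, against 6.54 and 11.3 in GMP-MoP, 13.5 and 12.2 in proNeu1 and 16.4 and 8.63 in proNeu2 (log2 difference -2.78, SE 0.469, adjusted p = 1.07e-07). Bcl11a, a zinc finger repressor gene, held one (chr11:24121027-24122099) with 3.76 and 5.81 CPM in cMoP, against 13.1 and 17.0 in GMP-MoP, 9.21 and 15.6 in proNeu1 and 14.6 and 21.2 in proNeu2 (log2 difference -1.63, SE 0.335, adjusted p = 1.33e-05). With loess offsets the Bcl11a region alone of the 4 kept its place in the apart set.

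Receptor and adhesion genes added a few more. Besides Kit, the cytokine and chemokine receptors had 1 lower member in Ifngr1, the gene of an interferon gamma receptor chain (chr10:19597913-19598488), with 1.08 and 0 CPM in cMoP, against 5.81 and 7.37 in GMP-MoP, 2.83 and 7.46 in proNeu1 and 7.90 and 7.97 in proNeu2 (route over cMoP 12.5, 95% interval 3.31 to 105, adjusted p = 1.58e-05). With loess offsets this region too was called but not apart. The 212 tested regions of that list had 55 called higher and 33 lower, 25.9% and 15.6% against 24.5% and 19.9% of all tested regions. Cd81 was lower at its start site (chr7:143052315-143053545), with 11.3 and 9.50 CPM in cMoP, against 25.4 and 22.1 in GMP-MoP, 27.6 and 36.6 in proNeu1 and 36.5 and 35.2 in proNeu2 (log2 difference -1.53, SE 0.235, adjusted p = 5.72e-09). The 142 tested regions of the tetraspanin and integrin list had 33 called higher and 30 lower, 23.2% and 21.1%, near the shares of all tested regions. At Cd81 GMP-MoP lay between cMoP and the proNeu groups, with both of its libraries under all 4 proNeu libraries. The monocyte and macrophage list, with 39 of 126 regions called higher and 11 lower (31.0% and 8.73%) and a median of 0.28, had no apart region in either direction. Neither had the inflammatory list (197 regions, 59 or 29.9% called higher and 26 or 13.2% lower) or the lysosomal list (94 regions, 25 or 26.6% and 20 or 21.3%). At 0.472% and 0.737% of all tested regions, lists of this size hold few or no apart regions. With loess offsets 1 monocyte region was apart higher, and with total counts 1 inflammatory region was apart lower. Against GMP-MoP alone, 7 of the 126 regions of the monocyte list were higher and 2 lower, beside 3.47% and 1.98% of all tested regions.

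The largest differences among lower members of at least 10 CPM, on the same scale with the prior count, lay at Egln3, Zscan25, Phf2, Sun2, Mmrn1, Ak4, Agrn, Ctsc, Cenpo, Snx4, Gbe1 and Grin2b. Agrn encodes the proteoglycan agrin, and its region (chr4:156188249-156189189) had 3.76 and 1.58 CPM in cMoP, against 17.4 and 14.7 in GMP-MoP, 26.9 and 21.7 in proNeu1 and 26.1 and 22.6 in proNeu2 (log2 difference -2.95, SE 0.356, adjusted p = 1.86e-13). Near Ak4, the gene of a mitochondrial adenylate kinase (chr4:101401748-101402537, 13941 bp away), the levels were 1.08 and 2.64 CPM in cMoP, against 18.2 and 17.0 in GMP-MoP, 18.4 and 14.2 in proNeu1 and 10.9 and 16.6 in proNeu2 (log2 difference -3.03, SE 0.417, adjusted p = 8.55e-11). Gbe1, the glycogen branching enzyme gene (chr16:70351612-70352428), had 1.08 and 2.11 CPM in cMoP, against 10.9 and 11.3 in GMP-MoP, 13.5 and 14.2 in proNeu1 and 10.9 and 13.9 in proNeu2 (log2 difference -2.90, SE 0.455, adjusted p = 1.19e-08), and a second region of the gene was also a member. At these 3 genes both cMoP libraries were far below the lowest route library. A region 43924 bp from Egln3, which encodes a prolyl hydroxylase of HIF (chr12:54247798-54248653), had 0.538 and 0.528 CPM in cMoP, against 6.54 and 6.80 in GMP-MoP, 9.92 and 10.9 in proNeu1 and 11.6 and 7.97 in proNeu2 (route over cMoP 16.8, 95% interval 4.50 to 141, adjusted p = 4.24e-08). Sun2, a nuclear envelope gene (chr15:79731326-79732179), had 2.69 and 0.528 CPM in cMoP, against 10.9 and 13.04 in GMP-MoP, 19.1 and 17.6 in proNeu1 and 12.8 and 12.6 in proNeu2 (log2 difference -3.08, SE 0.443, adjusted p = 4.92e-10). All 12 regions kept their call in each of the 16 alternative fits, and with loess offsets Mmrn1, Ak4, Ctsc, Gbe1 and Grin2b still met the apart rule. At 5 lower members cMoP had no count at all, at Hgf, Ergic1 and Hmgn3 and at 2 regions with no linked gene; against a floor of 3 counts over both cMoP libraries, cMoP was at least 4.64-fold lower at Hgf, 6.95-fold lower at Ergic1 and 5.73-fold lower at Hmgn3.

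Markers of other marrow cells were read as lists. Igll1, a pre-B cell receptor gene, held the 1 apart region of the 18 B cell regions, with 2.69 and 1.06 CPM in cMoP, against 3.63 and 7.37 in GMP-MoP, 2.12 and 10.2 in proNeu1 and 4.86 and 5.97 in proNeu2 (log2 difference -1.59, SE 0.550, adjusted p = 0.0119); its libraries overlapped between groups, and the call ended in DESeq2's Wald test and without cMoP replicate 2, GMP-MoP replicate 2 or proNeu1 replicate 2. Mcpt8 held the 1 apart region of the 39 mast cell, basophil and eosinophil regions (chr14:56084877-56085657), with 1.61 and 1.58 CPM in cMoP, against 9.44 and 6.24 in GMP-MoP, 4.96 and 10.2 in proNeu1 and 6.08 and 10.6 in proNeu2 (log2 difference -2.24, SE 0.512, adjusted p = 9.78e-05). The T and NK list (33 regions, 8 or 24.2% called higher and 8 or 24.2% lower) and the erythroid and megakaryocyte list (29 regions, 6 or 20.7% and 8 or 27.6%) had none. The 1 apart region was 5.56% of the B cell list and 2.56% of the mast cell, basophil and eosinophil list, against 0.737% of all tested regions. The contrast called 5 B cell regions higher and 5 lower (27.8% each). In the mast cell, basophil and eosinophil list it called 10 and 6 (25.6% and 15.4%), or 5 and 7 with loess offsets. Of all tested regions 24.5% were called higher and 19.9% lower. Summed over the list, B cell regions had 169 to 181 CPM in cMoP, against 187 to 193 CPM in GMP-MoP, 169 to 191 CPM in proNeu1 and 161 to 202 CPM in proNeu2. The mast cell, basophil and eosinophil list had 439 to 446 CPM in cMoP, against 408 to 435 CPM in GMP-MoP, 458 to 475 CPM in proNeu1 and 459 to 472 CPM in proNeu2. Of its 21 genes 15 had a tested region, and of the 13 B cell genes 8. Their part in the results was not tested. In bulk libraries of this kind, fewer open cells and less open chromatin in each cell cannot be told apart.

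**Figure D4:**
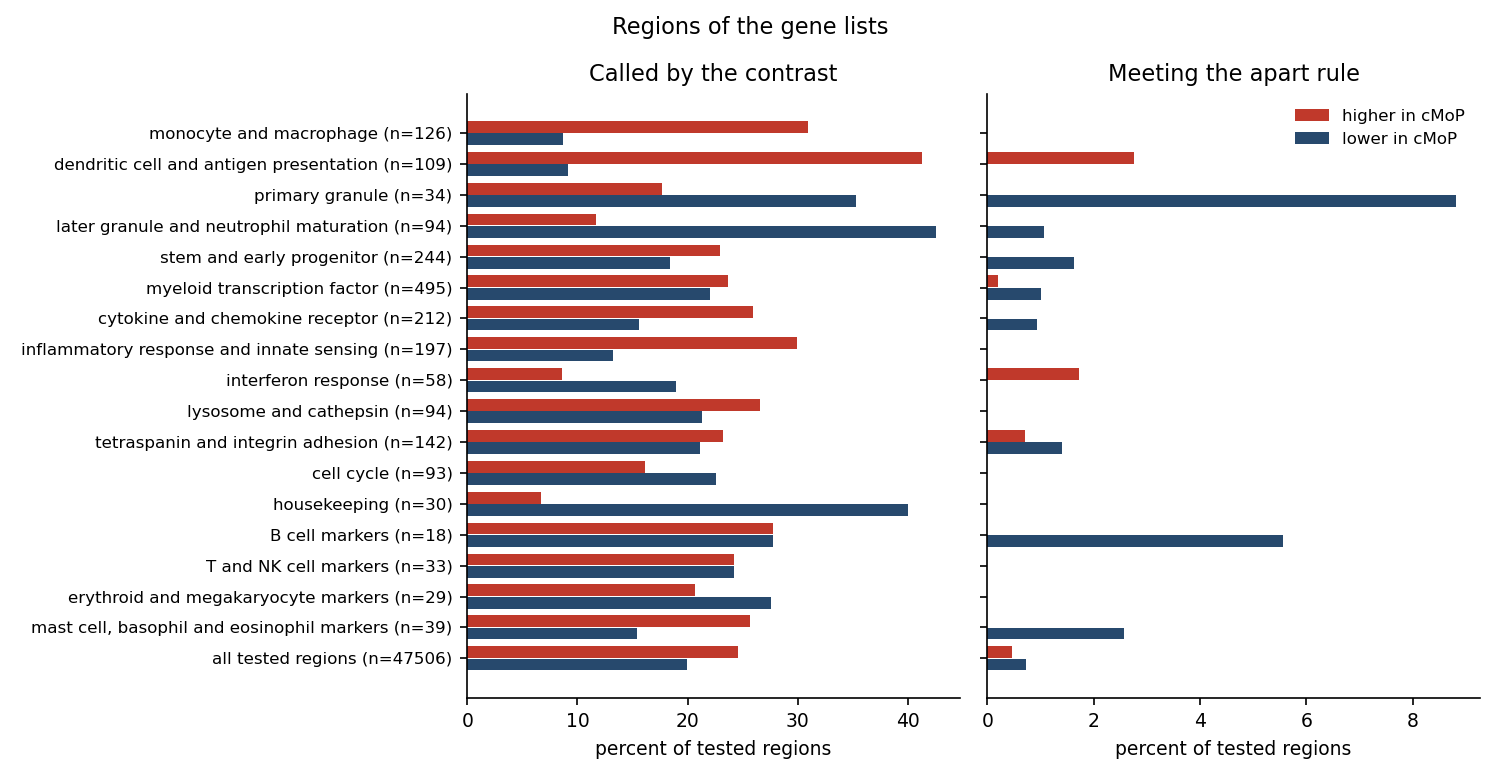
Percent of the tested regions of each gene list that were called higher (red) or lower (blue) in cMoP by the contrast (left) and that met the apart rule (right), with all 47506 tested regions at the bottom and the number of regions in brackets. The dendritic cell list has the largest share called higher (41.3%) and the later granule list the largest share called lower (42.6%), but at most 3 regions of any list were apart in the higher direction and at most 5 in the lower.

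The medians and counts of the lists were read again under other scalings. The dendritic cell, monocyte, inflammatory, primary granule and later granule medians kept their sign with RLE factors, with total counts and with loess offsets; the dendritic cell list had 0.36 and 36 regions called higher with loess offsets, and the later granule list -0.35 and 41 called lower. The myeloid transcription factor median, -0.02, turned to 0.02 with RLE factors, 0.05 with total counts and 0.04 with loess offsets, and the cell cycle median, -0.15 with 15 regions called higher and 21 lower, turned to 0.05 with 12 and 10. Housekeeping genes had 2 of 30 regions called higher and 12 lower (6.67% and 40.0%, against 24.5% and 19.9% of all) and a median of -0.32, which was -0.13 with 1 and 8 under loess offsets. The counts also rest on the link of regions to genes. With every gene within 10 kb linked, 3 of 68 list counts moved by over 1.5 times: 3 primary granule regions were called higher, 15 erythroid and megakaryocyte regions were called lower, and no transcription factor region was apart higher. With only regions within 1 kb of a gene end, which leaves fewer regions, 44 of the 68 moved. The dendritic cell list then had 9 called higher and 4 lower, the primary granule list 2 and 3 and the later granule list 2 and 17, and the apart regions left in any list were 1 of the tetraspanin and integrin list and 1 of the mast cell, basophil and eosinophil list, both lower.

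The most accessible tested region of each of 26 genes chosen by name, most of them known in the monocyte and neutrophil branches, was read, and 0 of the 26 met the apart rule. Irf8 encodes the monocyte and dendritic cell factor, and of its 9 tested regions 6 were called higher, 1 lower and 0 were apart. At its most accessible region (chr8:120792350-120793557, 35656 bp outside the gene) the levels were 53.8 and 53.3 CPM in cMoP, against 40.7 and 42.0 in GMP-MoP, 18.4 and 21.7 in proNeu1 and 20.7 and 17.3 in proNeu2 (log2 difference 1.09, SE 0.161, adjusted p = 1.52e-09). At Csf1r (chr18:61107550-61109239), the gene of the macrophage colony-stimulating factor receptor, they were 63.4 and 61.2 CPM in cMoP, against 46.5 and 43.1 in GMP-MoP, 23.4 and 23.7 in proNeu1 and 18.2 and 14.6 in proNeu2 (log2 difference 1.26, SE 0.155, adjusted p = 4.57e-13). At Siglech (chr7:55784158-55785224), the gene of a lectin of plasmacytoid dendritic cells, they were 60.2 and 66.5 CPM in cMoP, against 55.2 and 52.2 in GMP-MoP, 15.6 and 15.6 in proNeu1 and 6.08 and 7.30 in proNeu2 (log2 difference 1.83, SE 0.170, adjusted p = 9.35e-21). In all 3 the proNeu libraries lay far below cMoP and GMP-MoP did not, and the values against GMP-MoP alone were 0.37, 0.48 and 0.24 (log2; adjusted p = 0.267, 0.0938 and 0.498). Near Irf5 (chr6:29523728-29524853, 1277 bp away), an interferon regulatory factor gene, the levels were 47.8 and 43.8 CPM in cMoP, against 31.9 and 26.6 in GMP-MoP, 6.37 and 2.71 in proNeu1 and 3.04 and 7.30 in proNeu2 (log2 difference 2.38, SE 0.212, adjusted p = 3.01e-22). On the neutrophil side, a region near Cebpe (chr14:54705441-54707330, 3033 bp away), the gene of the factor of terminal granulopoiesis, had 15.1 and 11.1 CPM in cMoP, against 31.2 and 19.3 in GMP-MoP, 70.8 and 87.5 in proNeu1 and 103 and 114 in proNeu2 (log2 difference -2.18, SE 0.201, adjusted p = 4.30e-21). Erg (chr16:95349392-95351011), an ETS factor gene, had 16.1 and 8.97 CPM in cMoP, against 20.3 and 15.9 in GMP-MoP, 61.6 and 53.6 in proNeu1 and 77.8 and 71.0 in proNeu2 (log2 difference -1.76, SE 0.215, adjusted p = 4.04e-13). Cd40, the gene of a costimulatory receptor, had 21.5 and 22.2 CPM in cMoP, against 9.44 and 7.37 in GMP-MoP, 2.12 and 4.75 in proNeu1 and 3.04 and 1.33 in proNeu2 (log2 difference 2.42, SE 0.296, adjusted p = 3.32e-13) and a value of 1.39 against GMP-MoP alone (adjusted p = 0.00286), but GMP-MoP and the proNeu groups lay too far from each other for the rule. Ly6c2, a monocyte surface marker gene, was lower in cMoP, with 34.4 and 30.1 CPM in cMoP, against 59.5 and 48.8 in GMP-MoP, 61.6 and 42.0 in proNeu1 and 39.5 and 55.8 in proNeu2 (log2 difference -0.66, SE 0.163, adjusted p = 3.68e-04). Spi1, the gene of PU.1, did not pass the test, with 44.6 and 40.1 CPM in cMoP, against 44.3 and 37.98 in GMP-MoP, 42.5 and 50.9 in proNeu1 and 47.4 and 47.8 in proNeu2 (log2 difference -0.09, SE 0.154, adjusted p = 0.678). Nor did the regions of Cebpa, Ctsg, Zeb2, Ccr2, Cx3cr1, Cd9, Ets1, Kit and Zbtb46, with adjusted p-values of 0.0528 (Cx3cr1) to 0.926 (Ccr2). Klf4 (log2 difference 0.75, adjusted p = 3.28e-05) and Flt3 (adjusted p = 0.0226) were called higher. Gfi1 (log2 difference -0.52, adjusted p = 0.00349), Prtn3, Elane, Ms4a3 and Actb were called lower. The call ended in 8 of the 16 alternative fits at Flt3, 3 each at Gfi1 and Prtn3 and 1 at Klf4.

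The apart regions differed in place from tested regions at large, in ways the rule did not use. Gene ends, 1 kb to either side of where a gene starts or stops, held 5.36% of the higher and 6.86% of the lower members, against 25.4% of tested regions. Gene bodies held 117 and 175 of the 224 and 350 members, against 39.4% of tested regions, and 42.4% and 43.1% lay outside genes, against 35.2%. Start sites lay in 4.02% and 2.29% of members and in 19.0% of tested regions, and the median distance to a start site was 32.8 and 39.0 kb, against 21.0 kb. Among all regions called by the contrast the 2 directions parted, with 1283 of the 11657 higher and 3723 of the 9475 lower calls (39.3%) at gene ends. Members were also narrower, with median widths of 755 and 824.5 bp, against 950 bp. Members were weaker than tested regions at large, and whether strength alone gives these shares was not tested.

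Members were scattered over the genome. The 224 higher ones were linked to 189 genes and the 350 lower ones to 284. Chromosome 1 held 36 of the 224 higher members, or 1.06% of its tested regions against 0.472% over all, and they were spread along it. Of the lower members, chromosome 16 had 1.19%, chromosome 8 1.11% and chromosome 6 1.06% of its tested regions, against 0.737% over all. Few successive members of the same direction started within 50 kb of each other, 3 pairs among the higher and 13 among the lower. Among all 47506 tested regions, which are far more numerous, there were 38726 such pairs.

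Several members at 1 gene were the exception. Palld, which encodes an actin-binding protein, had 3 lower members, at chr8:61908317-61909048, chr8:61896625-61897370 and chr8:61911134-61911855, among 13 tested regions of which 6 were called lower and 1 higher. The first had 4.30 and 5.28 CPM in cMoP, against 8.71 and 17.0 in GMP-MoP, 13.5 and 14.9 in proNeu1 and 17.6 and 12.6 in proNeu2 (log2 difference -1.55, SE 0.338, adjusted p = 4.13e-05). The last had 0.538 and 0.528 CPM in cMoP, against 3.63 and 7.37 in GMP-MoP, 7.79 and 6.78 in proNeu1 and 9.12 and 7.97 in proNeu2 (route over cMoP 13.5, 95% interval 3.59 to 114, adjusted p = 3.48e-06). Trpm3, an ion channel gene, had 2 lower members, and the more accessible (chr19:22973345-22974358) had 2.15 and 3.69 CPM in cMoP, against 19.6 and 22.7 in GMP-MoP, 15.6 and 27.8 in proNeu1 and 18.2 and 21.9 in proNeu2 (log2 difference -2.81, SE 0.350, adjusted p = 8.50e-13). At Palld and Trpm3 all route libraries stood above both cMoP libraries, as at 343 of the 350 lower members, which were chosen on these values. Marchf1, whose ubiquitin ligase removes MHC class II from the surface, had 2 lower members although 6 of its 14 tested regions were called higher and 3 lower. Foxp1, a forkhead factor gene, had 2 higher and 1 lower member among 37 tested regions. The 2 higher ones (chr6:99502114-99502820 and chr6:99064064-99064852) had log2 differences of 2.20 and 1.72, and the lower one (chr6:99001470-99002134) -1.66. Foxp1, Dars, Map2k4, Pde4b, Pecam1 and Rerg were the 6 genes with members of both directions. Near Dars, an aspartyl-tRNA synthetase gene, the opposed regions lay close together, at chr1:128438326-128438981 with 8.60 and 8.45 CPM in cMoP, against 3.63 and 2.83 in GMP-MoP, 1.42 and 2.71 in proNeu1 and 3.65 and 1.99 in proNeu2 (log2 difference 1.65, SE 0.429, adjusted p = 6.57e-04), and at chr1:128440892-128441646 with 1.61 and 1.06 CPM in cMoP, against 8.71 and 6.24 in GMP-MoP, 7.08 and 4.75 in proNeu1 and 4.26 and 5.31 in proNeu2 (log2 difference -2.09, SE 0.589, adjusted p = 0.00178).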

How the data were processed

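ATAC-seq counts of 8 libraries (4 groups of 2) were analysed. The authors deposited 1 table a library with raw read counts (whole numbers) over 61196 regions (median width 832 bp), the same in every table; totals differ between tables. The mm10 build and the tools HOMER 4.11, Bowtie2 2.3.5.1 and edgeR 3.32.1 are named per the submitters' processing notes, without roles. Tn5 shifting, duplicate and mitochondrial filters and any pooling of samples for the regions: not given in the sources used here. Totals of 1388525 to 1907810 counts cover these regions only; intervals and floors cover counting error, and PCR reads are not independent molecules.

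Tests ran in R 4.3.3 with edgeR 4.0.16: TMM, filterByExpr at a minimum count of 10, robust quasi-likelihood fit with 4 group means, Benjamini-Hochberg adjustment over 47506 regions. Levels for the apart rule used a prior count of 2. Regions were linked to RefSeq gene intervals within 50 kb (88.1% linked), in place of the planned start sites, which were given for 17492 of 21900 protein-coding genes. The replicates of a group differed by more than sampling noise (chi-square per degree of freedom 1.36 in cMoP, 1.47 in GMP-MoP and 1.31 in proNeu1 over regions of at least 80 counts) except in proNeu2 at that minimum (1.01; p = 0.165), where regions of lower counts did show a difference (1.04; p = 4.0e-10); the 2 proNeu2 libraries were kept as 2, with their sum as an alternative. Named genes were, in each direction, the 12 largest differences of at least 10 CPM, up to 3 for each of 17 gene lists by p, and the strongest region of 26 lineage genes; the most accessible, start site and repeated members were chosen after their values were seen. Members and lists were chosen with earlier results of these data known. Alternatives were other scalings, no filter, DESeq2 1.42.0, a replicate block, each library left out, proNeu2 summed or left out, and other limits of the rule. The fits were checked on simulated counts with equal route groups and changes at better covered regions only. That check does not cover the weak members or the drift over strength.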

Additional observations from a re-analysis of the deposited data

How the results depend on the processing

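The counts below are regions called higher and lower by the contrast, apart higher and apart lower, and differing among the route groups, which were 11657, 9475, 224, 350 and 16756. With loess offsets the apart higher count was 116, and the apart count of GMP-MoP 21 against 32. Without the filter on low counts 506 regions were apart higher, and 65 for proNeu1 (34) and 399 for proNeu2 (245). DESeq2's Wald test called 6899 higher and 3863 lower, and its likelihood ratio test 5962 among the route groups. With the proNeu2 libraries summed to 1, 348 were apart higher. With proNeu2 left out of the route, 5702 were called lower, 514 were apart higher and 607 apart lower. Route groups within 2 fold gave 574 and 659, the call against each route group without an agreement limit 1554 and 729, a cMoP fold of 1.5 gave 796 and 1062 and a fold of 3 gave 61 and 79. With at least 10 CPM in the higher group, an alternative chosen after seeing the data, 166 were apart lower; with a prior count of 0.5, also chosen then, 189 and 437 met the rule. Leaving out each library in turn gave 8641 to 12760 called higher, 6010 to 10373 called lower, 283 to 722 apart higher, 318 to 568 apart lower and 8258 to 17196 among the route groups, with 28 to 85 apart for GMP-MoP, 27 to 58 for proNeu1 and 249 to 588 for proNeu2. The apart higher count passed 1.5 times its value without cMoP replicate 1 (396, of which 174 shared) and without either GMP-MoP library (459, 134 shared, without replicate 1 and 722, 136 shared, without replicate 2); the apart lower count did so without cMoP replicate 2 (568, 277 shared). The cause was not tested. With the replicate block, the numbers of calls were 11740 and 9746, with 224 and 349 apart. Deviations of same-numbered libraries correlated at -0.011 to 0.0793. Counting noise at weak regions lowers such values, so they cannot tell whether the replicate numbers pair the libraries. RLE factors and total counts gave 240 and 182 apart higher and 335 and 409 apart lower. Of 928 adjusted p-values of the 58 named members over 16 alternatives, 914 stayed under 0.05, none changed direction, and 48 members kept every call; 7 of the 14 losses came with loess offsets. Of 136 list counts under other gene links, 47 moved by over 1.5 times, 44 of them with regions at gene ends alone. Depth limits the weak members: 34 of the higher had at most 3 counts in a route group, and 29 of the lower at most 3 in cMoP.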
